A study of Homo sapiens with 2 samples.

Results

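Interferon-stimulated genes are described here across HepG2 cells exposed to silica nanoparticles and control HepG2 cells. The 9 members, ISG15, IFIT1, IFIT3, MX1, OAS1, IFI6, IFI27, IRF7 and IRF9, were taken from a fixed list of symbols, and each was read by 1 probe (a set of oligonucleotides summarised as 1 value) that carried only that symbol, among 18417 genes read in this way. HepG2 is a human hepatoma cell line, that is, a line grown from a liver cancer. The SiO2-NP group was 1 array of cells exposed for 24 h to 100 mg/L of amorphous silica nanoparticles prepared in MEM, a standard culture medium, and the control group was 1 array of HepG2 cells in the same medium for which the labels state no exposure. The labels state neither a particle size nor a replicate culture. With 1 array in each group there was no replicate error, so no test could be run, and what follows describes this pair of arrays rather than the exposure in general.

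Interferons are secreted proteins that cells make when their sensors meet foreign or misplaced nucleic acid. They bind receptors on the same and on neighbouring cells, and the JAK kinases of those receptors activate a transcription factor complex, ISGF3, that contains IRF9 and binds the interferon-stimulated response element (ISRE) in the promoters of interferon-stimulated genes. Hepatocytes respond to type I and type III interferons, and the protein products hold back viruses by binding their RNA, degrading it or tagging proteins with ISG15.

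The promoter sequences are shown because the element is what the members have in common in the textbook account of their control, and the list of members did not use it. RefSeq promoters (GRCh38.p14, 250 bases before to 50 after a gene's start) matched 8 of the 9 members, in 12 windows, since IFIT3, MX1 and IFI27 had several starts. IRF7 had no promoter entry. The core of the element was searched as GAAANNGAAA on both strands. It was found in 9 of the 12 windows and in 6 members, ISG15, IFIT1, IFIT3, MX1, IFI6 and IFI27, while 3.57% of all 35116 promoters held it. The longer form GAAANNGAAAC, which contains the core, was found in the same number of members and in 0.794% of all promoters. The form GAAANGAAA, with 1 base fewer between the repeats, was added after the windows had been read. It was found in OAS1, IFIT3 and MX1 and in 3.12% of all promoters, and it can overlap the core. The IRF9 window held none of these forms. Capitals mark the motif, on the gene's own strand and 5′ to 3′, where a motif on the opposite strand reads TTTCNNTTTC. The IFI6 window held 3 copies of the core and the ISG15 window 2 overlapping copies:
IFI6 promoter, chr1:27672143-27672442, minus strand: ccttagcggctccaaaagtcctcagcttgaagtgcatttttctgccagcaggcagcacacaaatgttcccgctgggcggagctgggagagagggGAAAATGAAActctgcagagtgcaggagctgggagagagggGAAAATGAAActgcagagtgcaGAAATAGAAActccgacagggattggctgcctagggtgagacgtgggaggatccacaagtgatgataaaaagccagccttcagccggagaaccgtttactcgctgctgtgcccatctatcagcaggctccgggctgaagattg
ISG15 promoter, chr1:1013247-1013546, plus strand: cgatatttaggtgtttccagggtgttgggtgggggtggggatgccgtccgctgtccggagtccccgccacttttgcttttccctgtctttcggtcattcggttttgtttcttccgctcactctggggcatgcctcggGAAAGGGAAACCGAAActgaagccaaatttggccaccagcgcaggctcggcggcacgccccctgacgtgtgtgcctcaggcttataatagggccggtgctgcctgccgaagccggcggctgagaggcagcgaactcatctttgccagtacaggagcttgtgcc
IFIT1 site, chr10:89392497-89392526, plus strand: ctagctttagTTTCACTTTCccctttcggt
IFIT3 site, chr10:89327865-89327894, plus strand: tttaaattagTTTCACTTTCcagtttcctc
MX1 site, chr21:41420559-41420588, plus strand: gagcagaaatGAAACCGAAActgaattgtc
IFI27 site, chr14:94110631-94110660, plus strand: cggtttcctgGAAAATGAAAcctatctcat
OAS1 site, chr12:112906935-112906963, plus strand: cccttctgagGAAACGAAAccaacagcag
A match describes these letters and is no evidence of binding.

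The level of a gene is the deposited log2 intensity of its probe, and the difference is SiO2-NP minus control on the log2 scale. Probes differ in brightness, so levels were compared between arrays and not between genes. A level filter was set at the median gene, a mean log2 intensity of 7.26 over both arrays, which 9209 genes reached. It is not a detection call, and a gene below it may be dim or absent, which these values do not separate. To set each difference beside genes of like brightness, all genes were divided into 4 bins of mean level, of 4604 or 4605 genes each. A threshold of 1.5-fold corresponds to 0.58 on the log2 scale.

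None of the 9 interferon-stimulated genes reached 1.5-fold in either direction. The differences ran from -0.20 to 0.22, with a median of 0.09, and the largest in size was 1.16-fold. The 5 members above the control were ISG15, IFIT3, IFI27, IRF7 and IRF9, and the 4 below it were IFIT1, MX1, OAS1 and IFI6. The filter was passed by 4 members, OAS1, IFI6, IRF7 and IRF9, of which 2 lay above and 2 below the control. Among the genes at or above the filter 0.391% passed 1.5-fold in either direction, and 0.700% of all measured genes did, so a count of 0 among 9 members is close to that background. RNA came from whole cultures, so a different share of responding cells and a different level per cell cannot be told apart. At a lower threshold of 0.32 on the log2 scale the count of members was also 0, against 8.67% of all measured genes.

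**Figure D1:**
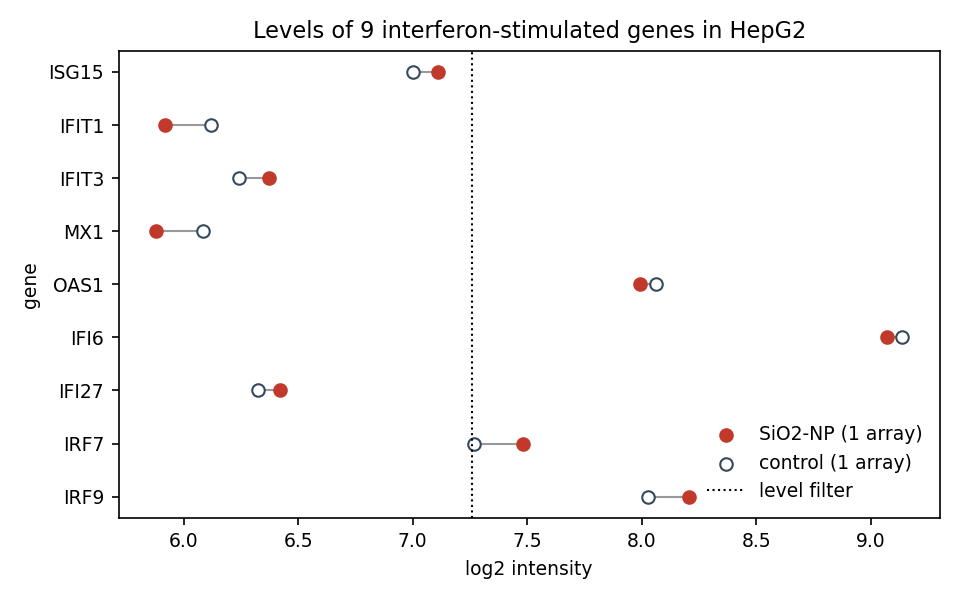
Log2 intensity of each interferon-stimulated gene (rows) on the SiO2-NP array (filled points) and the control array (open points), 1 array each, with the level filter of 7.26 as a dotted line. The paired points lie at most 0.22 apart, and OAS1, IFI6, IRF7 and IRF9 have means at or above the filter.

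The 2 transcription factors were the members furthest above the control. IRF7, the factor that amplifies interferon production once it is itself induced, had a log2 intensity of 7.48 in SiO2-NP cells and 7.27 in control cells. Its difference of 0.22 equals 1.16-fold, and 914 of the 4604 genes in the same bin of mean level differed by more in size. IRF9, the DNA-binding subunit of ISGF3, had 8.21 in SiO2-NP cells and 8.03 in control cells. That is a difference of 0.18, or 1.13-fold, and 1252 of the 4604 genes in its bin differed by more. Both factors lay above the control, by amounts that many genes of like level exceeded.

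The antiviral effectors split by direction. MX1, a dynamin-like GTPase that traps viral ribonucleoproteins, had a log2 intensity of 5.88 in SiO2-NP cells and 6.08 in control cells, a difference of -0.20. IFIT1, which binds viral RNA that lacks the cap methylation of host mRNA, had 5.92 in SiO2-NP cells and 6.12 in control cells, also a difference of -0.20. Larger differences in size were seen in 1367 genes of the 4604 in their bin for MX1 and in 1423 for IFIT1. IFIT3, the partner that stabilises IFIT1, went the other way, with 6.37 in SiO2-NP cells and 6.24 in control cells, a difference of 0.13. OAS1, the oligoadenylate synthetase that activates the nuclease RNase L when it meets double-stranded RNA, had 7.99 in SiO2-NP cells and 8.06 in control cells, a difference of -0.07. MX1 and IFIT1 were thus the members furthest below the control, and both were under the level filter.

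ISG15, an interferon-induced ubiquitin-like modifier that becomes attached to proteins, had a log2 intensity of 7.11 in SiO2-NP cells and 7.00 in control cells. The difference was 0.11, or 1.08-fold, and 2632 of the 4604 genes in its bin differed by more. IFI6 and IFI27 encode small related membrane proteins. IFI6 had 9.07 in SiO2-NP cells and 9.14 in control cells, a difference of -0.07. IFI27 had 6.42 in SiO2-NP cells and 6.33 in control cells, a difference of 0.09. For IFI6 2829 of the 4604 genes in its bin differed by more, and for IFI27 2919 did, so these related genes lay on opposite sides of the control by small amounts.

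Differences also depended on level across the whole array, and the members were read against that. Genes below the level filter had a median difference of 0.07 and genes at or above it one of -0.03. In the bin of mean level that holds ISG15, IFIT1, IFIT3, MX1 and IFI27, the central 95% of genes lay between -0.36 and 0.43. In the bin that holds OAS1, IRF7 and IRF9 it lay between -0.41 and 0.30, and in the bin of IFI6 between -0.34 and 0.24. All 9 members fell inside the range of their bin. With a running median over genes of like level subtracted, the difference of MX1 was -0.29, that of IFIT1 -0.30, that of IFI27 0.02 and that of IRF9 0.21. The signs of all 9 members were kept under centring on the median, the running median and quantile normalization, although IFI6 came to -0.0074 under the last.

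**Figure D2:**
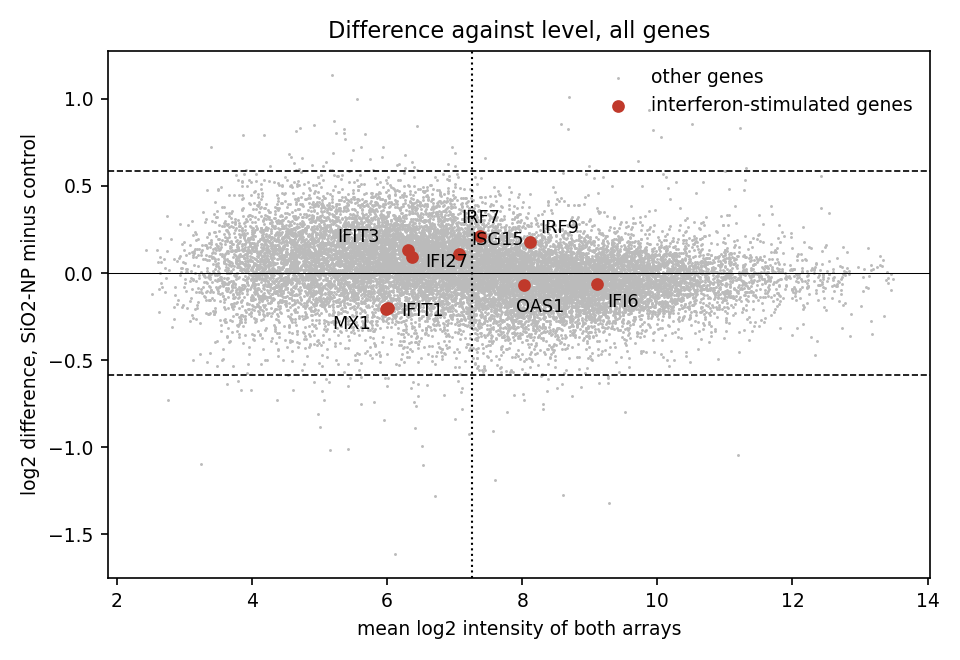
Log2 difference, SiO2-NP minus control, against the mean log2 intensity of both arrays for 18417 genes (grey points), with the 9 interferon-stimulated genes in red. Dashed lines mark 1.5-fold and the dotted line the level filter, and the 9 members lie between -0.20 and 0.22, inside the cloud of genes.

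**Figure D3:**
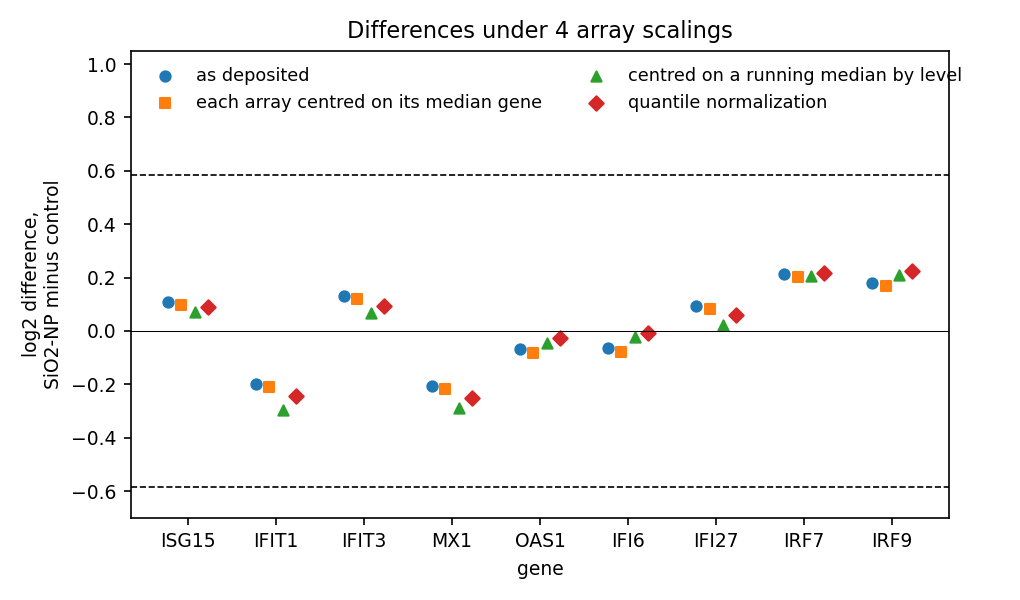
Log2 difference of each member under the deposited scale and 3 other array scalings, with dashed lines at 1.5-fold. Each member stays on its side of 0 under all 4, with values between -0.30 and 0.23.

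The families of the members gave no common direction either. These relatives were chosen after their values were seen, and near-identical stretches of relatives can be read by one another's probes. Among the IFIT genes, IFIT2 had a log2 intensity of 4.56 in SiO2-NP cells and 4.45 in control cells, and IFIT5 had 7.22 in SiO2-NP cells and 7.52 in control cells. IFIT5, with a difference of -0.30, passed the level filter. MX2, the sister gene of MX1, had 8.40 in SiO2-NP cells and 8.33 in control cells, a difference of 0.06 where that of MX1 was -0.20. The other oligoadenylate synthetases OAS2, OAS3 and OASL differed by 0.06, -0.0075 and 0.10, and the signs of OAS2 and OAS3 turned after centring on a running median, with that of OAS3 turning after quantile normalization too.

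Upstream of the members, the interferon ligands gave a median difference of 0.02 over 16 measured genes, 8 above and 8 below the control. Their levels ran from 2.83 to 8.97 in SiO2-NP cells and from 2.95 to 8.98 in control cells, and 1 of the 16 passed the level filter. That gene was IFNL3, a type III interferon, with 8.97 in SiO2-NP cells and 8.98 in control cells, a difference of -0.0048 whose sign turned under quantile normalization and the running median. The IFNA genes are close copies of one another, as are the IFNL genes, so probes within each of these families may read more than 1 gene. Among receptors and JAK-STAT genes the median was -0.05 over 10 measured genes, and 0.11 over the 7 above the filter. TYK2, the kinase bound to the type I interferon receptor, had 8.22 in SiO2-NP cells and 7.99 in control cells, a difference of 0.23. IFNGR1, the ligand-binding chain of the interferon gamma receptor, had 9.22 in SiO2-NP cells and 9.39 in control cells, a difference of -0.17. No gene of either list passed 1.5-fold.

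The sensors of nucleic acid held the largest difference among the upstream genes above the filter. IFIH1, the sensor of long double-stranded RNA also called MDA5, had a log2 intensity of 7.13 in SiO2-NP cells and 7.56 in control cells, a difference of -0.43 or 1.35-fold lower. This lay just outside the central range of its bin of mean level, -0.41 to 0.30, although IFIH1 was named as an extreme of its list. RIGI, its relative that senses RNA ends, had 8.10 in SiO2-NP cells and 8.00 in control cells, a difference of 0.10. The list median was 0.00 over 17 measured sensors and adaptors, and of the 9 above the filter 2 lay above and 7 below the control. Most genes at or above the filter, 5503 of 9209, also lay below the control. The difference of IFIH1 was opposite in sign to those of IRF7 and IRF9, while that of RIGI had the same sign as theirs. Of the IRF factors other than the members, 6 were measured, with a median of -0.01, a mean of 0.0090 and a median of 0.07 over the 2 that passed the filter. Those 2 were IRF3, the constitutive factor that sensors activate, with a difference of 0.11, and IRF2, a repressor, with 0.03.

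A wider list of 58 measured interferon-stimulated genes had a median difference of -0.03, and 22 of them lay above and 36 below the control. Of the 33 above the level filter, 10 lay above and 23 below, in a set of genes whose median was -0.03 in any case. IFITM2, which blocks the entry of viruses at endosomes, had 8.88 in SiO2-NP cells and 8.49 in control cells, a difference of 0.39. TNFSF10, the death ligand TRAIL, had 9.55 in SiO2-NP cells and 9.92 in control cells, a difference of -0.37. IFITM1 and IFITM3, neighbours of IFITM2 in the same family that were chosen after their values were seen, differed by 0.26 and 0.36, and the 3 genes share sequence. Unlike the members, IFITM2, IFITM3 and TNFSF10 lay outside the central range of their bins of mean level. That range was -0.41 to 0.30 for IFITM2 and -0.34 to 0.24 for IFITM3 and TNFSF10. IFITM1 lay inside its own, -0.36 to 0.46. IFITM2 and TNFSF10 were named as extremes of the list, which favours a place outside the range. No gene of this list passed 1.5-fold. The chemokine CXCL10 came closest, at -0.53 and a log2 intensity of 3.45 in SiO2-NP cells and 3.99 in control cells, far under the filter. The naming rule did not cover CXCL10, which was picked out by its value. Its difference lay below -0.36, the lower end of the central range of its bin.

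Downstream in antigen presentation, 13 measured genes had a median difference of -0.04. TAPBP, which loads peptides on MHC class I, had 10.66 in SiO2-NP cells and 10.47 in control cells, and ERAP2, which trims those peptides, had 7.66 in SiO2-NP cells and 7.96 in control cells. These are differences of 0.18 and -0.30. Among 6 inhibitors of interferon signalling the median was 0.04, and -0.04 over the 3 that passed the filter, so the list had no settled direction. PIAS1, a SUMO ligase that restrains cytokine signalling, differed by 0.05, and the phosphatase PTPN2 by -0.14. Over all 7 lists the interferon system beside the members held 126 measured genes, of which 54 were above and 71 below the control. Of all 18417 genes, 9627 were above and 8765 below. The median of the 126 genes was -0.02 on the deposited scale and 0.01 after quantile normalization. None of them passed 1.5-fold, against 0.700% of all measured genes.

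**Figure D4:**
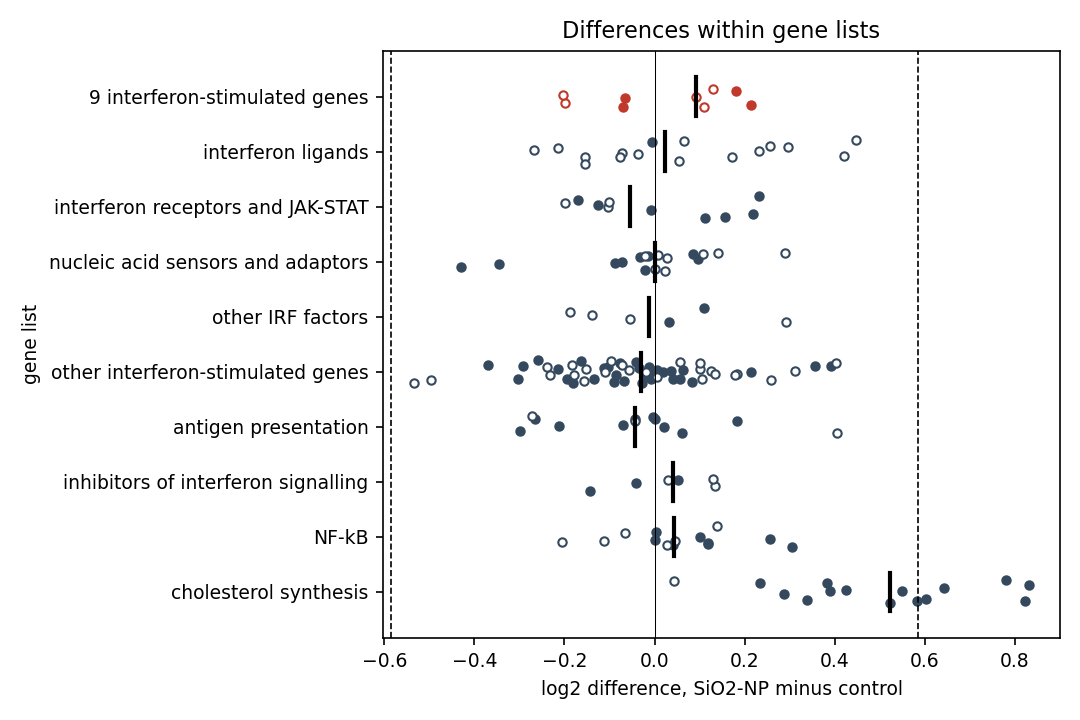
Log2 difference, SiO2-NP minus control, of each measured gene in the 9 interferon-stimulated genes (red), 7 other lists of the interferon system, an NF-kB list and a cholesterol synthesis list (dark). Filled points passed the level filter, open points did not, black bars are list medians and dashed lines mark 1.5-fold. The cholesterol synthesis median of 0.52 stands to the right of the medians of the 8 interferon lists. All lists were chosen with earlier results of these data known.

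The same arrays did carry larger differences in another pathway, whose list was chosen with earlier results of these data known. Its values are therefore a description and no independent measure of what these arrays could register. Of 15 measured cholesterol synthesis genes all lay above the control, with a median of 0.52, and 5 passed 1.5-fold, against 0.391% of the genes at or above the filter and 0.700% of all measured genes. At 2-fold the count was 0. DHCR7, the last enzyme of one route to cholesterol, had 11.64 in SiO2-NP cells and 10.80 in control cells, and MSMO1, a sterol demethylating oxidase, had the smallest difference of those above the filter, 0.23. That smallest difference was larger than the 0.22 of IRF7, the highest member, although no test of the difference between the lists was possible. PMVK, a measured gene of the list under the filter, differed by 0.04, less than the 5 members that lay above the control. The NF-kB list, the other branch of innate signalling, had a median of 0.04 over 14 measured genes, 11 above and 3 below the control, and none past 1.5-fold. The 8 NF-kB genes at or above the level filter all lay above the control, with a median of 0.11. Of all 9209 genes at or above the filter, 3703 lay above the control. NFKB1 and NFKB2, with differences of 0.0007 and 0.0023, were barely above it.

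Genes chosen by the promoter element alone were set beside the members, of which 6 belong to that set themselves, so the sets overlap. Of the genes whose promoter held GAAANNGAAA, 587 were measured, with a median difference of -0.0048, against 0.0095 over all genes. Of these 587 genes 5 were higher and 1 was lower by 1.5-fold or more, together 1.02%, against 0.700% of all measured genes. Above the level filter, 263 such genes had a median of -0.05 and 0 passed 1.5-fold, where the background was 0.391%. With the longer GAAANNGAAAC the median was -0.0043 over 149 measured genes, the same 6 members included.

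The cells carried the markers of their label. All 9 measured hepatocyte markers passed the level filter, with log2 intensities from 11.04 to 13.41 in SiO2-NP cells and from 10.97 to 13.50 in control cells, and ALB, which encodes albumin, differed by -0.10. Of 9 measured leukocyte markers, CD68, LYZ and NKG7 passed it, and the list ran from 3.71 to 13.27 in SiO2-NP cells and from 3.65 to 13.23 in control cells. PTPRC, the common leukocyte antigen, had 3.71 in SiO2-NP cells and 3.65 in control cells. LYZ, the brightest of the list, had 13.27 in SiO2-NP cells and 13.23 in control cells. CD68 had 9.49 in SiO2-NP cells and 9.61 in control cells, and NKG7 had 7.35 and 7.26. Leukocyte markers had a median difference of 0.09 (mean 0.16) with 8 of 9 above the control, beside a median of 0.09 (mean 0.02) for the members. With a running median by brightness subtracted, the medians were 0.08 for the leukocyte markers and 0.02 for the members, and the markers' part in the members' values was not tested. Of 5 fibroblast markers 1 passed the filter, with all 5 above the control and a median of 0.16, and 0 of 4 endothelial markers passed it. Of all 18417 genes 9627 lay above the control, and of the 9208 below the filter 5924 did. Of 2 housekeeping transcripts, ACTB (actin) differed by -0.0042 and GAPDH, a glycolytic enzyme, by 0.10.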

How the data were processed

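Expression was measured in 2 HepG2 RNA samples, 1 SiO2-NP and 1 control, on Affymetrix arrays of 33297 probes. The authors deposited 1 log2 intensity per probe and array, a scale inferred here because all values lie between 2.08 and 14.35; the array medians were 6.69 (SiO2-NP) and 6.65 (control). Per the submitters' processing notes RMA and MAS5 were used; not given in the sources used here is which of them made the deposited values, or the genome build. A normalization that equates array distributions hides changes shared by most transcripts. Arrays have no sequencing depth; precision is limited by their number.

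Platform symbols were updated through RefSeq gene IDs. The 19460 probes with 1 symbol were averaged into 18417 genes, and 1754 probes with several symbols and 12083 without one were left out. Differences, counts past 1.5-fold and list medians were computed without a test, and list genes were named as the largest positive and largest negative difference above the level filter, with any past 1.5-fold. The members, the gene lists and this rule were chosen with earlier results of these data known. Alternatives were other scalings, level filters, thresholds and probe rules. The steps were tested on simulated data with genes set well past 1.5-fold, which does not cover differences as small as those of the members. Values were computed in Python 3.11.15 with pandas 2.3.3 and NumPy 2.4.6, and drawn with matplotlib 3.10.9.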

Additional observations from a re-analysis of the deposited data

How the results depend on the processing

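With 1 array per group, none of these differences can be told from variation between cultures, and leaving out a replicate was not possible. No paired analysis was possible because the groups hold a single array each. Each member has 1 probe, so the probe rules could not change its value. Of the 27 member differences under the other 3 scalings, 0 changed sign, and the largest move was 0.0981. The member median of 0.09 ran from 0.01 to 0.10 when 1 member was left out, and was 0.02 as a mean or under the running median. Members past the fold numbered 0 under each of those scalings and at both other thresholds. A value is called moved at over 0.1 (log2) or, for counts, over 1.5 times.

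Members passing the level filter numbered 9 without a filter and 1 at the 75th percentile, against 4. The receptor and JAK-STAT median was 0.13 with that stricter filter and 0.11 over genes above the main filter (chosen after seeing the data), against -0.05 over all 10. All genes past 1.5-fold numbered 13 higher and 23 lower. The higher count was 21 under the running median and 22 under quantile normalization. Without a filter the counts were 61 and 68, and the lower count was 8 with the stricter filter. At 2-fold they were 1 and 4 of the 9209 genes at or above the main filter, with 0 cholesterol synthesis genes. At the lower threshold (0.32 on the log2 scale) they were 140 and 393 of those 9209 genes. Among list genes at or above the filter, these held 12 of 14 cholesterol synthesis genes, 2 of 9 sensors and 3 of 33 wider interferon-stimulated genes. Genes below the filter were not counted at either threshold. The cause of these moves was not tested beyond what each setting changes by construction. Of 213 summary values under alternatives, 196 stayed within those limits, but 9 list medians changed sign, in 4 lists (ligands, receptors and JAK-STAT, IRF factors, inhibitors). The limit of 0.1 exceeds the size of every interferon list median, and many of the 213 values are counts of 0. The 196 is therefore no measure of how stable those medians are. The sensor median of 0.00 had no sign to change, and came to -0.03 under the running median and 0.01 under quantile normalization.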

Other observations

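Some genes of the interferon system were read only by probes that carry several symbols, so their values were kept out of the lists and describe mixtures. The probes for MHC class I gave small differences: HLA-C, shared with HLA-B, had a log2 intensity of 11.64 in SiO2-NP cells and 11.70 in control cells, and HLA-F, shared with HLA-B, had 7.82 in SiO2-NP cells and 7.93 in control cells. CD74, the invariant chain of MHC class II, shares its probe with ROS1 and had 9.85 in SiO2-NP cells and 9.79 in control cells. GBP1, a guanylate-binding GTPase induced by interferon gamma, shares its probe with GBP3 and GBP1P1 and had 7.70 in SiO2-NP cells and 7.92 in control cells, a difference of -0.22. None of these 4 reached 1.5-fold.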
